A study of Mus musculus with 6 samples.

Results

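Expression of the Wnt signaling genes was examined in diaphragm muscle of mouse embryos at E14.75. The set held every protein-coding gene whose mouse symbol is Wnt, Fzd, Sfrp, Dkk or Rspo followed by a number and an optional letter, together with Lrp5, Lrp6, Wif1, Frzb, Axin2 and Lgr5. All 47 genes that meet this rule in the annotation had a value, among 23073 genes in all. They comprised 19 Wnt ligands, 10 Frizzled receptors, 2 Lrp co-receptors, 5 R-spondins and R-spondin receptors, 10 secreted inhibitors and the target gene Axin2. There were 3 groups of 2 libraries each. Wild-type muscle (WT, numbered 5 and 6) and mutant muscle (numbered 1 and 2) were erbB3 WT and erbB3 KO, and total RNA of the muscle was sequenced. ErbB3 is a receptor that Schwann cells need, and mutant muscle is described in the labels as lacking these cells. The Wnt1-Ribotag libraries (numbered 1 and 2) came from muscle that was WT for erbB3, and the tagged embryos carried Wnt1-Cre and Ribotag. Ribotag is an allele that adds a hemagglutinin tag to a ribosomal protein once Cre has acted. In these libraries, RNA was that which was recovered with tagged polysomes by an antibody to hemagglutinin. Wnt1-Cre is active in the neural crest, whose descendants include Schwann cells, peripheral neurons and other cells, so tagged RNA is not of Schwann cells alone. Each of these libraries was made from pooled diaphragms of a litter, and from far less RNA than the libraries of whole muscle. The paper states that the litter was homogenized whole and that only part of its embryos were Cre-positive. Muscle without tagged ribosomes was therefore also in the input.

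Wnt proteins are secreted lipid-modified ligands that bind Frizzled receptors on nearby cells. With the co-receptors Lrp5 or Lrp6, they stabilize β-catenin, which then acts with TCF/LEF factors on target genes such as Axin2, while other Wnts act without β-catenin on cell polarity and movement. Sfrp proteins, Frzb and Wif1 bind Wnts outside the cell, Dkk proteins bind the Lrp co-receptors, and R-spondins strengthen the signal through Lgr receptors by removing the ligases that clear Frizzled from the surface. In skeletal muscle, Wnt signals are known to take part in myogenesis, in connective tissue patterning and in the formation of the neuromuscular junction.

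Values were RPKM, in which reads are set against gene length and library depth, so that levels of different genes can be compared. A gene without reads holds a small floor value in place of 0. The depth of the libraries, worked out from the floor values, lay between 100178863 and 230216660 mapped reads. Across genes, the log2 values of replicates had a Pearson's r of 0.990 in WT, 0.984 in mutant and 0.926 in Wnt1-Ribotag libraries, so that the spread was widest in tagged RNA. The Erbb3 transcript did not tell the genotypes apart, with an RPKM of 16.5 and 15.8 in WT and 21.5 and 11.9 in mutant libraries. Sox10, a transcription factor of Schwann cells and their precursors, did so, with 2.89 and 2.16 in WT, 0.00854 and 0.0178 in mutant and 15.5 and 32.2 in Wnt1-Ribotag libraries. The summed RPKM of 20 Schwann cell and neural crest markers was between 69.0 and 81.6 in WT, 34.8 and 46.0 in mutant and 278 and 737 in Wnt1-Ribotag libraries. Other tissues were also present in all groups. Summed over 18 skeletal muscle markers, RPKM was between 1954 and 3891 in whole muscle and between 2263 and 2566 in tagged RNA, which was therefore not free of muscle RNA. Markers of neurons (13 genes) summed to 16.0 and 80.9 in WT, 9.71 and 13.8 in mutant and 135 and 610 in Wnt1-Ribotag libraries, and 12 liver markers to 532 and 165, 21.6 and 13.0, and 307 and 205 in the same order.

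The transcripts of secreted inhibitors were the most abundant of the set. Summed RPKM in WT was 175 and 196 for the 10 inhibitors, 91.7 and 97.5 for the 10 Frizzled receptors, and 33.6 and 33.8 for the 19 Wnt ligands. Most of the first sum came from Sfrp2 and Sfrp1. In contrast to the receptors, all 10 of which averaged an RPKM of 1 or more over the 6 libraries, only 7 of the 19 ligands reached 1 and only Wnt2b reached 5. There were 10 ligands below a mean of 0.5. Of these, Wnt16, Wnt9b, Wnt3 and Wnt10b were not marked as at the floor in any library. Wnt1, Wnt3a and Wnt8a were so marked in 3 libraries each, Wnt10a in 2, and Wnt7a and Wnt8b in 1. Values of about 1 read are not always marked, such as that of Wnt3 in Wnt1-Ribotag 1 (an estimated 1.01 reads). Elsewhere, above the floor means not so marked. Wnt7b and Wnt2 had means of 0.851 and 0.678. Wnt1 itself, whose regulatory sequence drives the Cre, was at the floor in both Wnt1-Ribotag libraries and reached 0.0209 at most, in WT 5. Among the other members, Rspo4, Dkk1 and Dkk4 were also below a mean of 0.5, the last at the floor in 5 libraries.

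**Figure D1:**
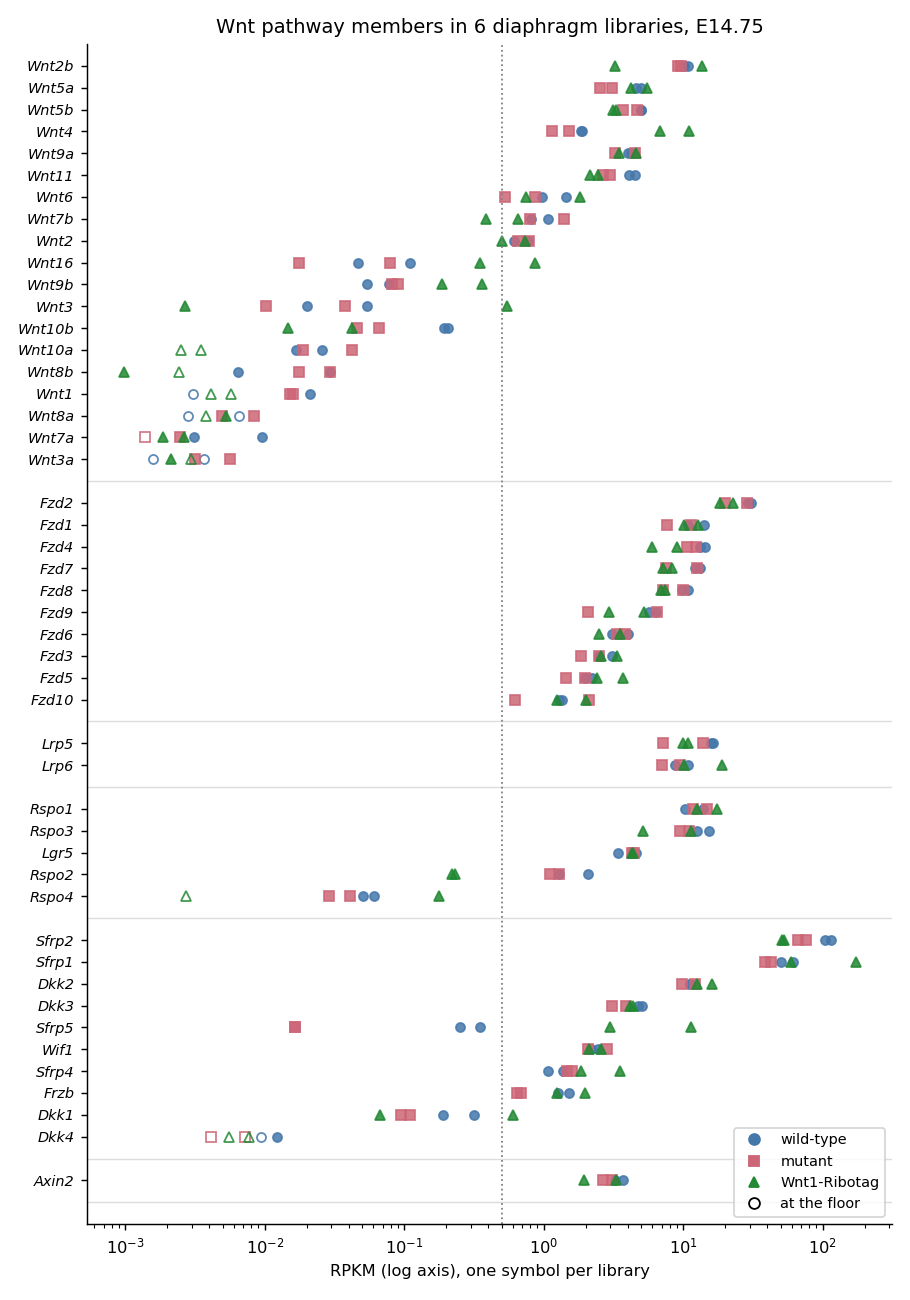
RPKM of the 47 genes, in rows grouped by role and ordered by mean within a role, on a log axis with 1 symbol per library (circles WT, squares mutant, triangles Wnt1-Ribotag, open symbols at the floor, dotted line at an RPKM of 0.5). Sfrp2 and Sfrp1 lie farthest to the right, all 10 Frizzled receptors lie to the right of the dotted line, and the Wnt1-Ribotag triangles stand apart from the other symbols for Wnt4 and Sfrp5.

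To ask which of these genes differed between groups, log2(RPKM + 0.5) was compared with limma, a linear model whose spread is moderated over all genes, for genes whose RPKM averaged 0.5 or more across the 4 libraries of a comparison. Benjamini-Hochberg adjustment was made over all genes tested, and log2 differences below are on this scale, which understates the change of genes with low RPKM. In mutant vs. WT muscle, 33 of the 47 genes were tested among 14052. None passed an adjusted p of 0.05 in limma, and none differed at least 2-fold in all 4 pairs of 1 mutant and 1 WT library. Over all genes tested, 0.0498% were called higher and 0.121% lower, and 0.0498% were 2-fold higher and 0.399% 2-fold lower in all pairs. At an unadjusted p under 0.05, 9 members (27.3%) differed, against 12% of all genes, and all 9 had lower values in the mutant. They were Sfrp2, Wnt5a, Frzb, Wnt11, Sfrp1, Rspo3, Dkk3, Lrp5 and Wnt6. Values were lower in the mutant in all 4 pairs for 17 members (51.5%), against 37.4% of all genes, and higher in all pairs for 1, Sfrp4, against 12.7%. The median log2 difference was -0.27 over the members tested and -0.10 over all genes. With libraries rescaled so that the median ratio of their genes was even, it was -0.16 over the members and 0.0042 over all genes. Of the 33 members, 26 had negative values before scaling and 24 after it, where 67.0% and 49.3% of all genes did. The differences of members whose sign changed were no larger than 0.085.

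In Wnt1-Ribotag vs. WT muscle, 34 of the 47 genes were tested among 14418. The added member was Sfrp5, which passed the minimum only through its level in the Wnt1-Ribotag libraries. None passed an adjusted p of 0.05 in limma, at which 0.00694% of all genes were called higher and 0% lower, and 11 members (32.4%) had an unadjusted p under 0.05, against 19.5% of all genes. Sfrp5 and Wnt4 were at least 2-fold higher in tagged RNA in all 4 pairs, against 1.51% of all genes, and Rspo2 was at least 2-fold lower in all pairs, against 0.825%. Rspo2 passed the minimum only through its level in whole muscle, here and against the mutant, so that for Sfrp5 and Rspo2, which entered through the group in which they were high, nothing is read from these shares. Without regard to size, 5 of 34 members were higher in all pairs, against 23.3% of all genes, and 13 (38.2%) lower, against 31%. In Wnt1-Ribotag vs. mutant muscle, 34 members were tested among 14325 genes, and Sfrp5 again passed the minimum only through the Wnt1-Ribotag libraries. Wnt4, which did not depend on them for the minimum, passed an adjusted p of 0.05 in limma, where 1.02% of all genes were called higher in tagged RNA. Sfrp5 also fell under this threshold, but having entered through the group in which it was high it had to differ, so that its p is a description and its call is no support. No member was called lower, against 0.175% of all genes. The same 3 genes differed at least 2-fold in all pairs, Sfrp5 and Wnt4 higher (against 3.34% of all genes) and Rspo2 lower (against 0.607%), with the same limit for Sfrp5 and Rspo2. Here 11 members (32.4%) were higher in all pairs, against 29.7% of all genes, and 6 (17.6%) lower, against 24.4%. The comparisons share libraries and are not independent of each other. Any difference from whole muscle may belong to the cells, to the recovery of polysomes, to the small input or to the Wnt1-Cre and Ribotag alleles. Against mutant muscle, the erbB3 genotype differs as well. These cannot be told apart in this design, and fewer cells of a type and less RNA per cell cannot be told apart in whole muscle either.

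**Figure D2:**
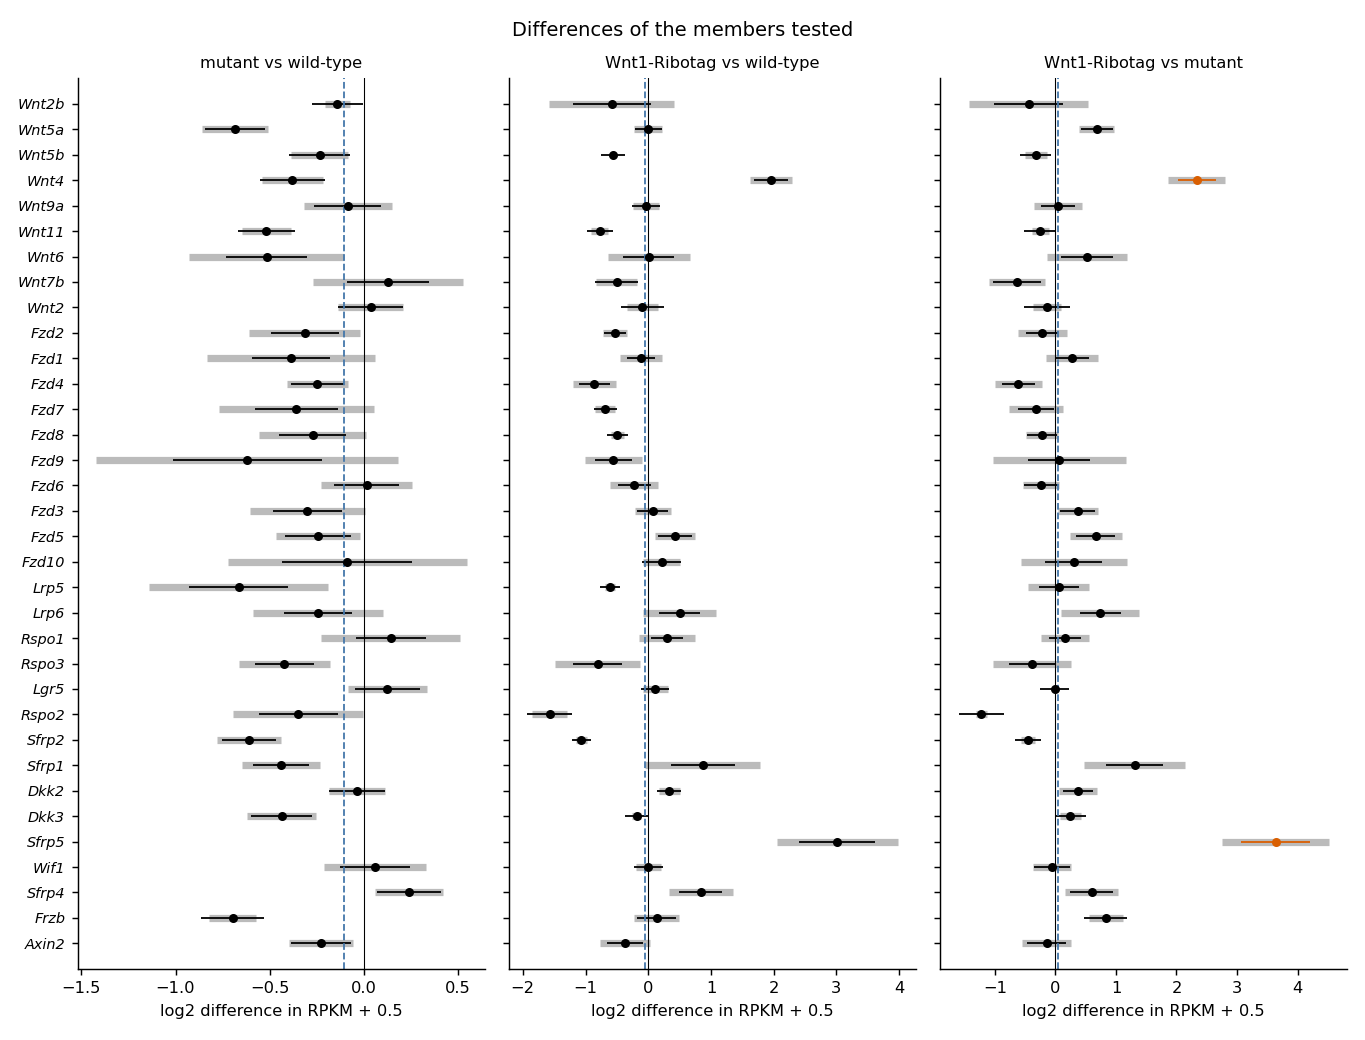
Log2 differences in RPKM + 0.5 for the members tested, in 3 panels (mutant vs. wild-type, Wnt1-Ribotag vs. wild-type and Wnt1-Ribotag vs. mutant), with points for the estimate, black bars for its SE, grey bars for the range over the 4 pairs of libraries, and a dashed line at the median of all genes tested. Orange marks Wnt4 and Sfrp5 in the last panel, which had an adjusted p under 0.05, and most points of the first panel lie to the left of 0. The panels have different axis ranges.

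Among the ligands tested, Wnt4 stood out in tagged RNA. Wnt4, which signals in the development of kidney, gonad and muscle, is annotated on chromosome 4 (GRCm38, 137277489 to 137299726). RPKM of Wnt4 was 1.83 in WT 5, 1.89 in WT 6, 1.51 in mutant 1, 1.14 in mutant 2, 10.9 in Wnt1-Ribotag 1 and 6.83 in Wnt1-Ribotag 2. Both values in tagged RNA were thus several times those of every library of whole muscle, and both mutant values were below both WT values. In single pairs, RPKM in Wnt1-Ribotag libraries was 3.62- to 5.97-fold that in WT and 4.53- to 9.59-fold that in mutant libraries. The log2 difference was 2.33 (SE 0.31, adjusted p = 0.0284 from limma) against the mutant and 1.96 (SE 0.27, adjusted p = 0.141 from limma) against WT. In mutant vs. WT muscle it was -0.38 (SE 0.17, adjusted p = 0.42 from limma). The call against the mutant was lost without mutant 2, where the adjusted p of Wnt4 in limma was 0.0709. It was also lost with no minimum level (0.119) and with quantile normalization (0.0678), and over all alternatives the adjusted p from limma lay between 0.000336 and 0.119.

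The fitted values of Wnt5a, Wnt11, Frzb, Dkk3 and Sfrp4 are given because of their order in mutant and WT muscle, and these genes were chosen after their values were seen. Wnt5a and Wnt11, ligands that mostly act without β-catenin, had lower values in mutant than in WT muscle. RPKM of Wnt5a was 4.60 in WT 5 and 5.01 in WT 6, but 2.53 in mutant 1 and 3.09 in mutant 2. In the Wnt1-Ribotag libraries it was 5.46 and 4.22, which overlaps the WT values and lies above both mutant values. The mutant mean was 58.5% of the WT mean, with a log2 difference of -0.68 (SE 0.16, unadjusted p = 0.00276 and adjusted p = 0.184 from limma), and against tagged RNA the mutant was also lower in all 4 pairs. RPKM of Wnt11 was 4.05 and 4.47 in WT, 2.67 and 2.98 in mutant, and 2.43 and 2.15 in Wnt1-Ribotag libraries. Here WT was the highest of the groups and tagged RNA the lowest, with no overlap between any of them. The log2 difference of Wnt11 was -0.52 (SE 0.15, adjusted p = 0.309 from limma) in the mutant and -0.77 (SE 0.21, adjusted p = 0.189 from limma) in tagged RNA vs. WT muscle.

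Wnt2b, the ligand with the highest mean, differed little within whole muscle, with an RPKM of 10.7 and 10.1 in WT and 9.56 and 9.22 in mutant libraries. The Wnt1-Ribotag libraries lay on either side of these, at 13.6 and 3.25, so that no direction can be given for tagged RNA. Wnt5b, a close relative of Wnt5a, was at 4.95 and 4.97 in WT, 4.65 and 3.69 in mutant and 3.29 and 3.14 in Wnt1-Ribotag libraries, in that order without overlap. Wnt9a, which acts in joint and skeletal development, was between 3.26 and 4.61 in all 6 libraries and the groups overlapped. Wnt6, Wnt7b and Wnt2 were between 0.385 and 1.82.

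The ligands of low level were below the minimum for a test, and those named here were chosen after their values were seen. With no value added to RPKM, and among genes above the floor in all 4 libraries, Wnt10b was at least 2-fold lower in mutant than in WT muscle in all pairs, along with Sfrp5, which makes 2 of 42 members (4.76%) against 1.96% of 18685 genes. RPKM of Wnt10b, known as a canonical ligand that holds back adipogenesis, was 0.193 and 0.205 in WT, 0.0461 and 0.0654 in mutant and 0.0423 and 0.0147 in Wnt1-Ribotag libraries. By annotated exon length, these stand for about 65.9 and 160 reads in WT, 20.5 and 51.2 in mutant and 17.7 and 8.57 in Wnt1-Ribotag libraries. Against WT by the same measure, Wnt16 and Wnt9b, ligands of bone and of kidney development, joined Sfrp5 and Wnt4 as at least 2-fold higher in tagged RNA (10% of 40 members, against 3.2%), and Wnt10b joined Rspo2 as lower (5%, against 3.01%). Against the mutant, the same 4 genes were higher (10.3% of 39 members, against 5.75%) and Rspo2 lower (2.56%, against 2.49%). Wnt16 was at 0.0466 and 0.109 in WT, 0.0175 and 0.0792 in mutant and 0.87 and 0.348 in Wnt1-Ribotag libraries. Its values stand for about 20.4 and 110 reads in WT, 9.97 and 79.5 in mutant and 466 and 260 in Wnt1-Ribotag libraries. Wnt9b was at 0.0781 and 0.0543, 0.0815 and 0.0896, and 0.359 and 0.187 in the same order. Wnt9b, which was not tested, was thus higher in the mutant than in WT muscle in all 4 pairs, by 1.04- to 1.65-fold. Both were highest in tagged RNA, at levels below those of Wnt4. Wnt3 was at 0.547 in Wnt1-Ribotag 2 but at 0.00267 in Wnt1-Ribotag 1, the lowest of its 6 values.

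No Frizzled receptor differed 2-fold in all pairs of a comparison. RPKM of Fzd2, the receptor with the highest mean, was 30.6 and 29.0 in WT, 28.6 and 19.9 in mutant and 22.7 and 18.5 in Wnt1-Ribotag libraries, so that both WT values were above all others. Fzd4, known for its part in vessel growth, was at 13.1 and 14.3 in WT, 12.3 and 10.6 in mutant and 8.998 and 5.91 in Wnt1-Ribotag libraries, and the groups did not overlap. Fzd7, a receptor of muscle stem cells, was at 12.1 and 13.3, 12.6 and 7.57, and 8.28 and 7.15 in the same order. Fzd8 was at 9.80 and 10.7, 9.90 and 7.12, and 7.37 and 6.91. For Fzd2, Fzd4, Fzd7 and Fzd8, tagged RNA was below WT muscle in all pairs, by log2 differences between -0.86 and -0.49 with adjusted p from limma between 0.184 and 0.232. Fzd1, the remaining receptor with a mean of at least 5, was at 10.9 and 14.0 in WT, 11.3 and 7.63 in mutant and 12.8 and 10.1 in Wnt1-Ribotag libraries and overlapped between all groups.

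The mutant libraries differed from each other in several receptors, and mutant 2 was the lower for 9 of the 10 Frizzled genes, Fzd6 being the exception. Over the 33 members with a sufficient level, the median log2 difference of mutant 2 minus mutant 1 was -0.20, against -0.073 over all genes. The largest was in Fzd9, at 6.52 in mutant 1 and 2.06 in mutant 2, against 6.34 and 5.68 in WT. The co-receptor Lrp5 was likewise at 13.8 in mutant 1 and 7.14 in mutant 2, against 15.8 and 16.4 in WT and 10.7 and 9.99 in Wnt1-Ribotag libraries. Its log2 difference in mutant vs. WT muscle was -0.66 (SE 0.26, adjusted p = 0.395 from limma). Without mutant 1, Fzd9 and Lrp5 were called lower in the mutant, Lrp5 with a log2 difference of -1.12 and an adjusted p of 0.0459 from limma. In that fit 32 of 14052 genes were called lower, and the spread came from the WT pair alone, with the lone mutant library assumed to vary likewise. Without mutant 2 no member was called, and 11 genes were in all. Lrp6, the other co-receptor, was at 8.73 and 10.8 in WT, 9.42 and 6.98 in mutant and 19.0 and 10.1 in Wnt1-Ribotag libraries. Its highest value was that of Wnt1-Ribotag 1 alone, and Wnt1-Ribotag 2 was within the WT range. Of the less abundant receptors, Fzd6, Fzd3, Fzd5 and Fzd10 had values between 0.616 and 4.02, and Fzd5 was higher in tagged RNA than in WT muscle in all 4 pairs.

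Of the members tested, Rspo2 was lower in tagged RNA by the most. This R-spondin, known for its parts in limb and lung development and at the neuromuscular junction, is annotated on chromosome 15 (GRCm38, 43020794 to 43170826). RPKM of Rspo2 was 1.29 in WT 5, 2.09 in WT 6, 1.28 in mutant 1, 1.10 in mutant 2, 0.23 in Wnt1-Ribotag 1 and 0.218 in Wnt1-Ribotag 2. The tagged libraries were close to each other and far below all 4 libraries of whole muscle, while both mutant values lay just below the lower WT value or farther down. In single pairs, RPKM was 5.59- to 9.57-fold lower in Wnt1-Ribotag than in WT libraries and 4.79- to 5.86-fold lower than in mutant libraries. The fitted log2 difference was -1.57 (SE 0.35, adjusted p = 0.175 from limma) against WT and -1.22 (SE 0.38, adjusted p = 0.174 from limma) against the mutant. Since Rspo2 reached the minimum only through whole muscle, both are given as a description. Markers of muscle connective tissue (12 genes) and of mesothelium (10 genes) had lower values in tagged RNA as well. All 12 and all 10 had negative log2 differences from WT, with medians of -0.76 and -0.74, and the part of these cells in the level of Rspo2 was not tested.

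Of the other genes of the R-spondin group, Rspo3 had lower values in the mutant, and Rspo1 and Lgr5 overlapped between the groups. Rspo1 was at 13.9 and 10.3 in WT, 14.9 and 11.8 in mutant and 17.5 and 12.5 in Wnt1-Ribotag libraries. Rspo3, which acts on vessels, was at 12.5 and 15.3, 9.49 and 11.0, and 11.4 and 5.13. Both mutant and both tagged values of Rspo3 were below both WT values. The mutant mean was 73.6% of the WT mean, with a log2 difference of -0.42 (SE 0.16, unadjusted p = 0.0279 and adjusted p = 0.387 from limma). The mean of tagged RNA was 59.5% of the WT mean, with a log2 difference of -0.81 (SE 0.39, adjusted p = 0.324 from limma). Lgr5, an R-spondin receptor and itself a known target of β-catenin, was at 3.42 and 4.61 in WT, 4.31 and 4.45 in mutant and 4.36 and 4.31 in Wnt1-Ribotag libraries. The mutant and tagged values of Lgr5 fell within the WT range, and its log2 difference had a 95% interval of -0.27 to 0.52 in mutant and -0.45 to 0.68 in tagged RNA vs. WT muscle. Rspo4 was between 0.00274 and 0.176 and at the floor in Wnt1-Ribotag 2.

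Of all members, Sfrp5 had the widest range between groups. Sfrp5, a secreted antagonist of Wnts that is best known from fat tissue, is annotated on chromosome 19 (GRCm38, 42197971 to 42202252). RPKM of Sfrp5 was 0.346 in WT 5, 0.252 in WT 6, 0.0165 in mutant 1, 0.0164 in mutant 2, 2.998 in Wnt1-Ribotag 1 and 11.3 in Wnt1-Ribotag 2. The order was thus mutant, WT and tagged RNA, with no overlap and, on a log scale, with gaps wider than the spread within any group. In single pairs, RPKM was 15.3- to 21.0-fold lower in mutant than in WT libraries, a difference without a test because the mean was below the minimum. The mutant values stand for about 4.10 and 7.19 reads, and those of WT for 65.8 and 110 reads, as estimated from the annotated exon length of 1900 bases, which may exceed the length behind the RPKM. RPKM in Wnt1-Ribotag libraries was 8.67- to 45.0-fold that in WT libraries. The fitted log2 difference was 3.64 (SE 0.57, adjusted p = 0.0462 from limma) in Wnt1-Ribotag vs. mutant muscle and 3.01 (SE 0.60, adjusted p = 0.17 from limma) vs. WT muscle. Since Sfrp5 reached the minimum only through its values in tagged RNA, both are given as a description and not as tests of it. Without Wnt1-Ribotag 2, the library with the higher value, the difference from WT was 2.13. The value against the mutant was no longer under the threshold with a pseudocount of 1 (adjusted p = 0.0722 from limma) and with libraries scaled by their median ratio (adjusted p = 0.0532 from limma), as well as with quantile normalization (0.0762) and with no minimum level (0.158). Over all alternatives its adjusted p from limma lay between 7.26e-06 and 0.158.

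Sfrp5 moved in the same direction as the Schwann cell and neural crest markers. Of 15 such markers tested in mutant vs. WT muscle, 14 were lower with a median log2 difference of -0.88, and all 18 tested were higher in tagged RNA than in WT muscle with a median of 2.59. Neuron markers did so as well, with 8 of 8 tested lower in the mutant (median -1.62) and 11 of 11 higher in tagged RNA than in WT (median 2.54). Liver markers were also lower in the mutant, in 12 of 12 genes with the lowest median of the 3 lists (-2.84), but in tagged RNA vs. WT 4 were higher and 8 lower (median -0.20). In tagged RNA vs. mutant muscle all markers tested of the 3 lists were higher, 18 of Schwann cells and neural crest (median 3.47), 11 of neurons (median 4.11) and 11 of liver (median 2.75). The part of each cell type in the levels of Sfrp5 and Wnt4 was not tested.

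The most abundant member, Sfrp2, showed another order. Sfrp2 and Sfrp1 are Wnt antagonists of connective tissue cells. RPKM of Sfrp2 was 103 in WT 5, 114 in WT 6, 75.8 in mutant 1, 66.1 in mutant 2, 52.2 in Wnt1-Ribotag 1 and 50.7 in Wnt1-Ribotag 2, so that WT was highest and tagged RNA lowest without overlap. The mutant mean was 65.4% and the mean of tagged RNA 47.5% of the WT mean. The log2 difference was -0.61 (SE 0.14, adjusted p = 0.184 from limma) in the mutant and -1.07 (SE 0.16, adjusted p = 0.148 from limma) in tagged RNA vs. WT muscle. With all 6 libraries in a single fit, Sfrp2 and Wnt4 passed the threshold against WT, at an adjusted p of 0.0407 and 0.0345 from limma, and among the other alternatives only leaving out a Wnt1-Ribotag library did the same. The fit of 6 libraries called 138 of 14418 genes, 85 higher and 53 lower. RPKM of Sfrp1 was 49.7 and 60.9 in WT, 42.3 and 38.6 in mutant, and 172 and 58.9 in Wnt1-Ribotag libraries. Both mutant values were below both WT values, and in tagged RNA only Wnt1-Ribotag 1 lay outside the WT range. The log2 difference of Sfrp1 was -0.44 (SE 0.15, adjusted p = 0.37 from limma) in mutant vs. WT muscle and 1.31 (SE 0.47, adjusted p = 0.214 from limma) in Wnt1-Ribotag vs. mutant muscle. In a fit with replicate number as the block, the last had an adjusted p of 0.0372 from limma, and 842 genes were called in all.

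Frzb (also Sfrp3), a Wnt antagonist of cartilage and connective tissue, had lower values in the mutant. Its RPKM was 1.52 and 1.26 in WT, 0.643 and 0.683 in mutant and 1.23 and 1.97 in Wnt1-Ribotag libraries. Both mutant values were thus below all others, by 1.84- to 2.36-fold in single pairs with WT, and tagged RNA overlapped WT muscle. The log2 difference was -0.70 (SE 0.17, unadjusted p = 0.00322 and adjusted p = 0.193 from limma) in mutant vs. WT muscle. Cartilage markers (12 genes) summed to an RPKM of 31.1 and 30.3 in WT and 24.4 and 19.2 in mutant libraries, and to 22.5 and 31.9 in tagged RNA. Of the 7 tested, 5 were lower and 2 higher in the mutant, and their part in the level of Frzb was not tested. Dkk3, an unusual member of the Dkk family, was at 4.74 and 5.02 in WT, 3.10 and 3.90 in mutant and 4.12 and 4.33 in Wnt1-Ribotag libraries. Here too the mutant was lowest and WT highest, with no overlap, by a log2 difference of -0.44 (SE 0.16, adjusted p = 0.387 from limma).

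Dkk2, an inhibitor that binds Lrp5 and Lrp6, differed little. It was at 11.2 in both WT libraries, 9.80 and 12.1 in mutant and 16.0 and 12.6 in Wnt1-Ribotag libraries, which were the highest. Its log2 difference in mutant vs. WT muscle was -0.037 with a 95% interval of -0.38 to 0.31, and the sign turned to 0.079 after median-ratio scaling. Sfrp4 was the only one of the 33 members tested with higher values in the mutant in all pairs, at 1.38 and 1.07 in WT, 1.45 and 1.60 in mutant and 1.85 and 3.50 in Wnt1-Ribotag libraries. Its log2 difference in mutant vs. WT muscle was 0.24 (SE 0.17, adjusted p = 0.532 from limma). Wif1 stayed between 2.06 and 2.86 in all libraries with overlapping groups. Dkk1 was between 0.0672 and 0.603 and Dkk4 reached no more than 0.0122.

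**Figure D3:**
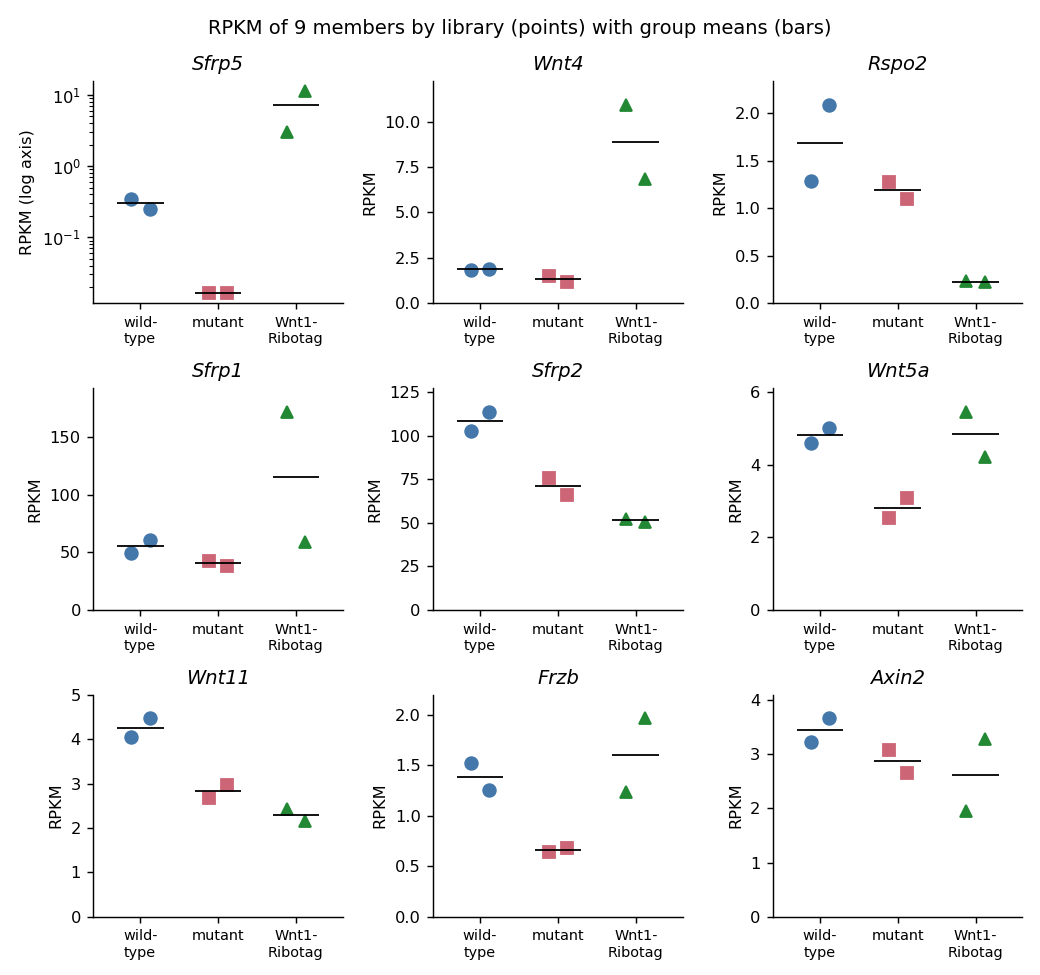
RPKM of 9 genes in each library (symbols) with the group mean (horizontal bars), on linear axes that start at 0 except for Sfrp5, whose axis is logarithmic. Sfrp5 and Wnt4 are highest and Rspo2, Sfrp2 and Wnt11 lowest in both Wnt1-Ribotag libraries, Wnt5a and Frzb are lowest in both mutant libraries, and the values of Axin2 overlap between Wnt1-Ribotag and the other groups.

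Axin2, a negative regulator in the β-catenin destruction complex that is widely read as a measure of canonical signaling, was at 3.22 in WT 5, 3.66 in WT 6, 3.08 in mutant 1, 2.66 in mutant 2, 1.94 in Wnt1-Ribotag 1 and 3.28 in Wnt1-Ribotag 2. Both mutant values were below both WT values, and the tagged libraries spanned the mutant values and the lower WT value. The log2 difference in mutant vs. WT muscle was -0.23 (SE 0.16, adjusted p = 0.525 from limma), with a 95% interval of -0.59 to 0.14. In tagged RNA vs. WT muscle it was -0.37 with an interval of -1.11 to 0.36, so that neither a modest fall nor no change can be told from these libraries.

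The other genes of the pathway were described by 4 lists. Of 20 further receptors and co-receptors, 18 were tested in mutant vs. WT muscle and all 18 had lower values in the mutant, with a median log2 difference of -0.32. So did all 10 tested of 15 genes of Wnt secretion and other secreted modulators (median -0.27), 24 of 25 genes of the intracellular cascade (median -0.23), and all 14 tested of 16 feedback and target genes (median -0.22). The background was a median of -0.10 and 67% of all genes lower, and no gene of the lists passed the test. After median-ratio scaling, 15 of 18, 7 of 10, 22 of 25 and 11 of 14 remained lower, against 49.3% of all genes. The part of mutant 2, the lower mutant library for many members, in these values was not tested. Some genes are in more than 1 list. The most abundant gene of each list was Gpc3 (a glypican that binds Wnts, with a mean RPKM of 180), Cthrc1 (a secreted cofactor of Wnts, 45.4), Ctnnb1 (β-catenin, 188) and Ccnd1 (cyclin D1, 40.1).

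In tagged RNA the lists were mixed. Against WT, 13 of 19 further receptors, 7 of 11 secretion genes and 9 of 14 target genes tested were lower and 17 of 25 cascade genes higher, where 54.4% of all genes were lower and 45.6% higher, and no gene passed the test. The shares of secretion and target genes were thus not far from that of all genes. Against the mutant, 17 of 25 cascade genes, 10 of 18 further receptors, 8 of 14 target genes and 4 of 11 secretion genes were higher, where 53% of all genes were. Of all genes, 1.02% were called higher and 0.175% lower there, and Ccnd1 was the only gene of the 4 lists that passed. Its RPKM was 17.8 and 27.5 in WT, 11.4 and 13.3 in mutant and 52.4 and 118 in Wnt1-Ribotag libraries, with no overlap between groups, and its log2 difference from the mutant was 2.63 (SE 0.39, adjusted p = 0.0374 from limma). Cyclin D1 drives entry into the cell cycle and responds to many signals besides Wnt. Gpc3 and Kremen2, a receptor of Dkk proteins, were at least 2-fold lower in tagged RNA than in WT muscle in all 4 pairs, against 0.825% of all genes. Gpc3 was at 238 and 256 in WT, 175 and 199 in mutant and 112 and 101 in Wnt1-Ribotag libraries. Kremen2 was at 4.41 and 5.19, 3.76 and 2.59, and 1.23 and 1.32 in the same order, so that values of both genes were highest in WT and lowest in tagged RNA.

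**Figure D4:**
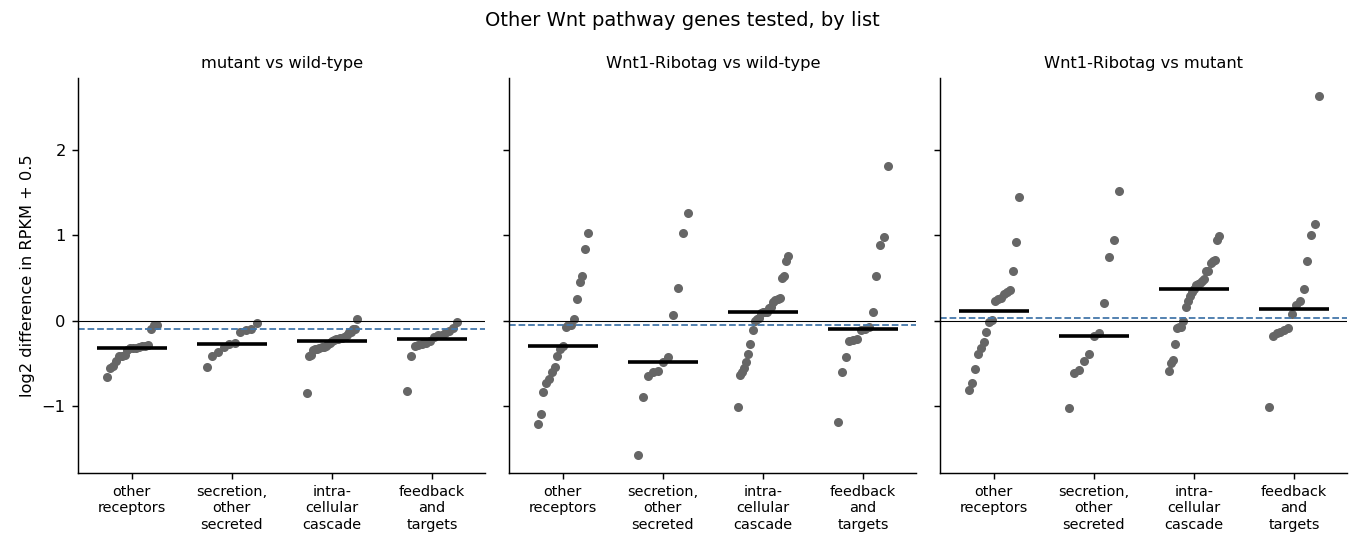
Log2 differences in RPKM + 0.5 of the other Wnt pathway genes tested (points, sorted within each of 4 lists), in 3 panels for the 3 comparisons, with the list median (thick bar) and the median of all genes tested (dashed line). In mutant vs. wild-type muscle nearly all points lie below 0 and within 1 log2 unit of it, while the points of both Wnt1-Ribotag panels lie on both sides of 0, with Ccnd1 as the highest point of the last panel.

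To show the sequence next to the start of genes on which these differences turn, the bases before a transcript start were taken from RefSeq for Sfrp5 and Wnt4, which were highest in tagged RNA, and for Wnt11, whose values were lower in mutant muscle. For Wnt11 and Frzb, only windows that held a TCF/LEF or SOX core were taken, and other genes with lower values in the mutant were not shown. Each window held 250 bases before the RefSeq start. For Sfrp5 and Wnt11 these end where the gene begins in GENCODE. The RefSeq start of Wnt4 lies farther in, with 146 bases of its window inside the GENCODE gene, and only the 104 bases before the gene are shown. For Frzb, 229 of the 250 bases lie inside the gene, so that its window is not shown. All are from build GRCm38.p6, written 5′ to 3′ on the strand of the gene. That of Sfrp5 is chr19:42202253-42202502 on the minus strand, that of Wnt4 chr4:137277385-137277488 on the plus strand and that of Wnt11 chr7:98834862-98835111 on the plus strand. Capitals mark the TCF/LEF core.
Sfrp5: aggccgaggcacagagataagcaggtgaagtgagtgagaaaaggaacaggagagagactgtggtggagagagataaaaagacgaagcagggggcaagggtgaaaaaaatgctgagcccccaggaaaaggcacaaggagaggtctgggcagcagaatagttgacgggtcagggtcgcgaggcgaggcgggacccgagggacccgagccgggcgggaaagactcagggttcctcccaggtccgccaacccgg
Wnt4: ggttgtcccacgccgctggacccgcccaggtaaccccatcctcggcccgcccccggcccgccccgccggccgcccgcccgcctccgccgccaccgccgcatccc
Wnt11: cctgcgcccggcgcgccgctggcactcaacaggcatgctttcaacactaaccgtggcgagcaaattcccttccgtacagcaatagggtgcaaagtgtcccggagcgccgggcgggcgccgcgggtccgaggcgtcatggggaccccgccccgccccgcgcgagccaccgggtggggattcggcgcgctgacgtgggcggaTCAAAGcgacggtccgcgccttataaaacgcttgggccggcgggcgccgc

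The stretches shown differ in composition, with 59.6% G and C in Sfrp5, 83.7% in Wnt4 and 70.8% in Wnt11. The core of TCF/LEF sites, CTTTGA, and that of SOX sites, CTTTGT, were searched on both strands of the whole windows. They differ in their last letter and so cannot overlap as the same match. Neither was found in the windows of Sfrp5 and Wnt4, and the TCF/LEF core was found once in that of Wnt11, there as TCAAAG on the strand shown, and once in that of Frzb, inside the gene. Since the windows of Wnt11 and Frzb were taken only because they held a core, nothing is read from these matches. Windows could be had for 30 of the 47 members, 33 windows in all. The TCF/LEF core was in 5 of them (15.2%), those of Dkk1, Frzb, Fzd1, Wnt11 and Wnt5b, against 13.8% of all 32851 windows of this length. The SOX core was also in 5 (15.2%), those of Dkk1, Dkk2, Fzd1, Fzd7 and Wnt8b, against 16.5%, so that neither share differs much from that of all genes.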

How the data were processed

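RNA-Seq of embryonic diaphragm (E14.75) was given in 6 libraries, 2 per group, and groups and replicate numbers are those of the labels. The deposited values are RPKM, beside a flag that marks genes at the floor. Their processing notes name STAR and mm9, and versions are not given in the sources used here. Each file has 23076 entries, 3 without a value. Read counts were not used. Symbols and positions came from GENCODE M21 on GRCm38 by Ensembl identifier, and 21583 identifiers matched and 1490 did not. Depth came from the floor values of microRNA genes.

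Log2(RPKM + 0.5) was fitted with limma 3.58.1 (R 4.3.3; lmFit, eBayes with a trend), 4 libraries per fit and no block, two-sided, for genes averaging an RPKM of 0.5 or more. An exact permutation test of 2 against 2 libraries cannot go below 0.33. WT and mutant libraries of a group are described as separate biological samples. Named members are those with a mean of at least 5, those past the threshold, those 2-fold different in all 4 pairs of a comparison, Axin2 and Lgr5. Wnt5a, Wnt11, Frzb, Dkk3 and Sfrp4 meet none of these and were described with fitted values after their values were seen, and the rest are given more briefly. The members, gene lists and rules were chosen with earlier results of these data known. The same-numbered mutant and Wnt1-Ribotag libraries share only a number in the labels. The fit was tested on simulated data with 200 changed genes. With 2- and 4-fold changes alone, limma recovered 98% of the 4-fold and 73% of the 2-fold changes in mutant vs. WT muscle (14052 genes), but 0% of either in Wnt1-Ribotag vs. WT (14418 genes) and in Wnt1-Ribotag vs. mutant muscle (14325 genes). A second mix, with 16-fold changes, was added after that result was seen. With it, limma recovered 100% of the 4-fold and 64.7% of the 2-fold changes in mutant vs. WT muscle. In Wnt1-Ribotag vs. WT it recovered 84.8% of the 16-fold, 45.5% of the 4-fold and 0% of the 2-fold changes. In Wnt1-Ribotag vs. mutant muscle it recovered 95.5%, 50% and 0%. The mixes differed in the 16-fold changes and also in the numbers of smaller changes, so what this recovery depended on was not tested. In the real data of mutant vs. WT muscle, 63 genes were at least 2-fold different in all pairs and 24 were called. The recovery in simulated data may therefore not hold there. Python 3.11.15, numpy 2.4.6, pandas 2.3.3 and matplotlib 3.10.9 were used.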

Additional observations from a re-analysis of the deposited data

How the results depend on the processing

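Settings tried were a lower and a higher pseudocount (0.1, 1), no minimum or a higher one (1), 2 rescalings (median ratio, quantile), limma without its trend or with all 6 libraries together, an adjusted p of 0.1, other folds (1.5, 3), a replicate block and each library left out. In limma, the number of members past the threshold in Wnt1-Ribotag vs. mutant muscle (2, with Sfrp5 tested only through its level in tagged RNA) became 1 with a pseudocount of 1 and with median-ratio scaling, 0 with no filter and with quantile normalization, 3 with the replicate block, and 1 to 10 with a library left out, where 2555 of 14325 genes passed without Wnt1-Ribotag 1 and 3844 without Wnt1-Ribotag 2. The number was 0 in mutant vs. WT muscle and 0 to 2 with a library left out. It was 0 in Wnt1-Ribotag vs. WT muscle, 2 with all 6 libraries together and 0 to 16 with a library left out, where 4404 of 14418 genes passed without Wnt1-Ribotag 1 and 5857 without Wnt1-Ribotag 2. In each such fit the lone library of a group is assumed to vary like the other group. Of members 2-fold different in all pairs, 0 in mutant vs. WT muscle became 2 on RPKM with no pseudocount (an alternative chosen after seeing the data) and 0 to 2 with a library left out. The 3 in Wnt1-Ribotag vs. WT became 2 with a pseudocount of 1, a mean of at least 1 or 3-fold, 5 at 1.5-fold, 6 with no pseudocount and 3 to 8 with a library left out. The 3 in Wnt1-Ribotag vs. mutant muscle became 2 with a pseudocount of 1, a mean of at least 1 or 3-fold, 5 with no pseudocount and 3 to 5 with a library left out.

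Among the members named by rule, signs of log2 differences near 0 turned with another scaling for Dkk2 in mutant vs. WT muscle (0.079 with median-ratio scaling, 0.053 with quantile normalization) and for Lrp5 in Wnt1-Ribotag vs. mutant muscle (-0.066 with quantile normalization). Of the other members tested, Wnt9a and Fzd10 did so in mutant vs. WT muscle, Wnt9a, Wif1, Wnt5a and Wnt6 in Wnt1-Ribotag vs. WT muscle, and Fzd9 and Wnt9a in Wnt1-Ribotag vs. mutant muscle, none with a log2 difference above 0.089 in size before scaling. Wnt5a, Wnt11, Frzb, Dkk3 and Sfrp4 kept their sign in mutant vs. WT muscle under every setting run and passed the threshold under none. In tagged RNA some passed in limma with a Wnt1-Ribotag library left out. Against WT these were Wnt11 without either library (adjusted p = 0.0179 and 0.0206) and Sfrp4 without Wnt1-Ribotag 1 (0.0123). Against the mutant they were Frzb and Sfrp4 without Wnt1-Ribotag 1 (adjusted p = 0.00694 and 0.02) and Wnt5a without Wnt1-Ribotag 2 (0.036). So many genes passed in these fits that little is read from it. With a library left out, log2 differences of members named by rule changed sign in mutant vs. WT muscle for Dkk2 (-0.18 to 0.11), Rspo1 (-0.066 to 0.35) and Lgr5 (-0.065 to 0.32). In Wnt1-Ribotag vs. WT muscle they did so for Wnt2b (-1.54 to 0.37), Fzd1 (-0.29 to 0.061) and Lgr5 (-0.079 to 0.30), and, among the 5 genes added to those named by rule, for Frzb (0.13, but -0.12 without Wnt1-Ribotag 2) and Wnt5a (0.0017, but -0.055 without WT 5 and -0.17 without Wnt1-Ribotag 1). In Wnt1-Ribotag vs. mutant muscle they did so for Fzd8 (-0.45 to 0.0037), Wnt2b (-1.40 to 0.51), Lrp5 (-0.40 to 0.51), Fzd2 (-0.47 to 0.039), Rspo3 (-0.93 to 0.15), Rspo1 (-0.085 to 0.39), Fzd7 (-0.68 to 0.023), Lgr5 (-0.034 to 0.0066) and Axin2 (-0.46 to 0.17). Log2 differences of the remaining members were not listed with a library left out. The causes were not tested. With quantile normalization the median of all genes moved to -0.070 in the last comparison. Depth limits the members near the floor, the Wnt1-Ribotag spread limits both comparisons of tagged RNA, and pairing by number was checked by the correlation of deviations, 0.17 over 14325 genes with only 2 pairs, so that a call under the block is no more than a hint.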
